A study of Mus musculus with 24 samples.

Results

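Transcript levels of 10 core and naive pluripotency factors were followed in mouse ESCs during the first 6 h of retinoic acid (RA). The genes were found by symbol, as the rows Pou5f1, Sox2, Nanog, Klf2, Klf4, Esrrb, Zfp42, Tfcp2l1, Tbx3 and Prdm14 of a table of 26264 genes, and all 10 were present and passed the filter on low counts. RNA-seq of polyA RNA was carried out on BAP1-AID and UTX-AID ESCs, each without (−IAA) and with (+IAA) indole-3-acetic acid at 0, 3 and 6 h of RA (12 groups of 2 replicates). BAP1 is a deubiquitinase of histone H2A and UTX a demethylase of histone H3. Both lines carry an HA-AID degron tag on the named protein and stably overexpress TIR1, the adaptor through which IAA, a plant auxin, leads the tagged protein to degradation. All cells were grown in serum with leukemia inhibitory factor (LIF) before RA, and RA was given in medium without LIF, so that the RA response and LIF withdrawal cannot be told apart. The lines were derived as knock-in clones, and how many clones a line stands for is not given in the sources used here, so that clone and tagged protein cannot be told apart. The labels give no source for the 2 replicates of a group, and p-values measure the spread between libraries, which may be technical.

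Mouse ESCs in serum with LIF hold their identity through a core of Pou5f1 (OCT4), Sox2 and Nanog, which bind many enhancers together. LIF acts through STAT3, and Klf4 and Tfcp2l1 are known to lie downstream of it, whereas Tbx3 is linked to phosphoinositide 3-kinase signalling in the same cells. Klf2, Klf4, Esrrb, Zfp42 (REX1), Tfcp2l1, Tbx3 and Prdm14 mark the naive state, and are known to be lost as cells move towards formative and primed states.

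The counts of a library summed to between 42018795 and 54034789, and 3 counts, taken as the smallest detectable amount, stood for 0.0545 to 0.0695 CPM (reads of a gene per summed reads of its library, scaled by TMM factors). This floor covers counting error only. The 7 ESC markers, 4 of which are among the 10 genes, were above 0 in all 24 libraries, with a summed level of 3983 to 4889 CPM. Markers of fibroblast feeders summed to at most 5.85 CPM and those of mesoderm to at most 3.12 CPM. Across all genes the replicates of a group correlated at r = 0.982 to 0.986. Some of the 10 genes differed between replicates 1 and 2 of −IAA BAP1-AID at 3 h (Tfcp2l1 at 87.1 and 131 CPM) and of −IAA UTX-AID at 0 h (Prdm14 at 10.7 and 5.02 CPM). Results that rest on these libraries are given with and without them. In RNA from a whole culture, fewer cells expressing a gene and less RNA per cell cannot be told apart.

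Promoter sequences are shown for 3 genes because Nanog and Prdm14 rose with RA, Zfp42 was called lower in more comparisons with 0 h than any other of the 10, and each held one of the motifs searched. In the 300 bases before the annotated start of 16208 genes (mm39), the OCT4-SOX2 composite TTTGCATNACAATG, searched on both strands, was present in 1 promoter, that of Nanog. Only exact matches to these letters were counted, and other forms of the composite were not searched. The single match therefore does not show that the element is particular to Nanog. The octamer ATGCAAAT was in 1.52% of promoters and, of the 10 genes, in Zfp42 alone, on the reverse strand. The nuclear receptor half-site AGGTCA was in 14.4% of promoters, among them Nanog, Tfcp2l1 and Prdm14. Direct repeats of AGGTCA with 5 bases between them were found in 0 of these promoters and repeats with 2 bases between them in 2 (0.0123%), of which 0 belonged to the 10 genes. Here too only exact matches were counted, and other forms of the repeats and sites outside the 300 bases were not searched. The 10 genes are therefore not shown to lack such elements. The matches are capitalised in the following sequences from mm39, each 5′ to 3′ on the strand of its gene. The Nanog sequence covers chr6:122684365-122684394 (plus strand), lies 101 to 114 bases before the start at its capitals, and falls in an exon of another annotated Nanog transcript. The Zfp42 sequence covers chr8:43760153-43760302 (minus strand) and the Prdm14 sequence chr1:13198350-13198499 (minus strand).
Nanog: cagcttctTTTGCATTACAATGtccatggt
Zfp42: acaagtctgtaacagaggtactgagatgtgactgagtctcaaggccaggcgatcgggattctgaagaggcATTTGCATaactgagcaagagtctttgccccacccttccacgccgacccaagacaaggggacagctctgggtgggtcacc
Prdm14: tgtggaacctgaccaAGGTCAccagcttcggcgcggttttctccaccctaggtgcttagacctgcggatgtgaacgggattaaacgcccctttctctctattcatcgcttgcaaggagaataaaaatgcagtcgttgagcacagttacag
A match describes letters only, and binding was not measured in these data.

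At 0 h the genes spanned a wide range of levels per transcript length. In −IAA BAP1-AID ESCs, Pou5f1 had the highest mean level, at 949 CPM per kb (n = 2), followed by Sox2 at 240 CPM per kb and Zfp42 at 93.3 CPM per kb. Nanog (53.4 CPM per kb), Esrrb (35.7 CPM per kb) and Klf2 (30.5 CPM per kb) came next. Tfcp2l1 (9.95 CPM per kb), Klf4 (4.89 CPM per kb), Prdm14 (2.37 CPM per kb) and Tbx3 (1.51 CPM per kb) were the lowest. In −IAA UTX-AID ESCs the order was Pou5f1 at 617, Zfp42 at 331, Sox2 at 151, Nanog at 123, Esrrb at 41.4, Klf2 at 13.6, Tfcp2l1 at 11.3, Klf4 at 4.91, Prdm14 at 2.07 and Tbx3 at 1.85 CPM per kb. Zfp42 thus stood above Sox2 and Nanog far above Klf2 in that clone. For Klf2 and Tfcp2l1, and for Prdm14 and Tbx3, the UTX-AID neighbours lay near each other.

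**Figure D1:**
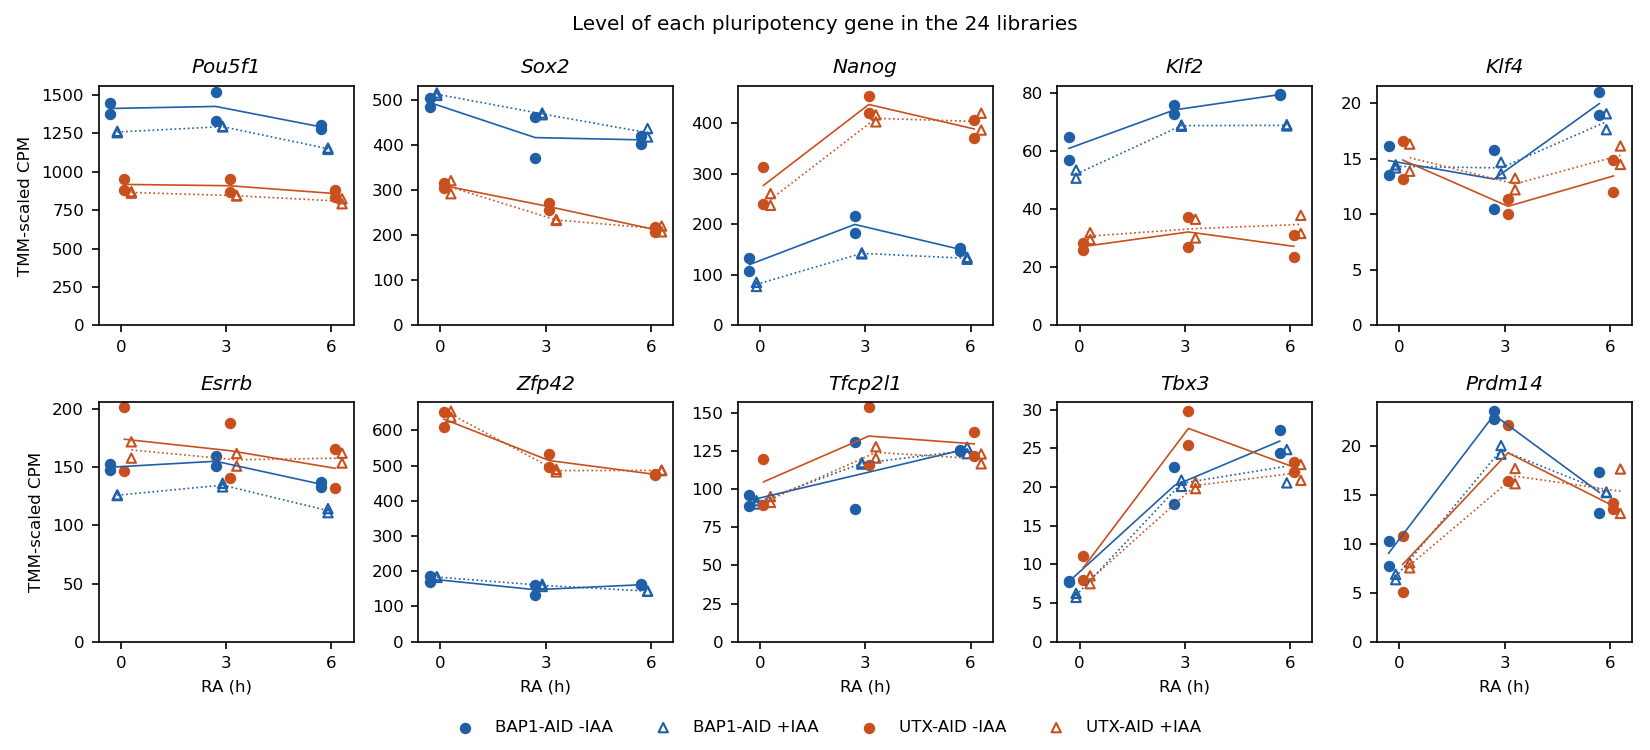
Level of each of the 10 genes in the 24 libraries, in TMM-scaled CPM on linear axes from 0, against hours of RA. Each point is 1 library, blue for BAP1-AID and orange for UTX-AID, filled circles for −IAA and open triangles for +IAA, and lines join group means. Tbx3 went from 5.71 to 11.1 CPM over the 8 libraries at 0 h to 20.5 to 27.4 CPM over those at 6 h, whereas Pou5f1 stayed between 792 and 1522 CPM throughout.

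The first question was which of the factors fell, and which held, within 6 h of RA without LIF. No gene of the 10 lost 1 log2 unit at 3 or 6 h in any clone or arm. Tbx3 and Nanog rose in both clones at both times, Prdm14 in 7 of 8 comparisons, and Klf2 and Tfcp2l1 were called higher in BAP1-AID alone. The 6 h values of Tfcp2l1 were alike in all 4 combinations (0.32 to 0.48), and a difference between the clones was not shown for either gene. With the replicate number as a block in the fit, Tfcp2l1 was called higher in UTX-AID too. Zfp42 and Sox2 fell in UTX-AID at both times, Zfp42 also in +IAA BAP1-AID at 6 h, and Pou5f1, Esrrb and Klf4 were not called. A difference between the clones in the 6 h response was not shown for Zfp42 or Sox2 either. A call here is an adjusted p below 0.05 in edgeR's quasi-likelihood test, adjusted by Benjamini-Hochberg over all genes of a clone's fit, and the comparisons at 3 and 6 h share their 0 h libraries.

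At 3 h, 4 of the 10 genes were higher and 0 lower in −IAA BAP1-AID, where 5.51% of all genes tested were higher and 1.85% lower. In +IAA BAP1-AID the counts were also 4 and 0, against 4.61% and 1.91% of all genes. In −IAA UTX-AID, 3 were higher and 2 lower, against 3.56% and 1.28% of all genes, and in +IAA UTX-AID 3 and 2, against 2.77% and 0.799%. For the counts of 0 lower, DESeq2 also called 0 in both BAP1-AID arms, and unadjusted p-values under 0.05 were found for 6 of the 10 genes in either direction in −IAA and for 5 in +IAA.

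At 6 h, 5 genes were higher and 0 lower in −IAA BAP1-AID, against 10.8% and 5.08% of all genes tested, and 5 higher and 1 lower in +IAA BAP1-AID, against 8.93% and 6.44%. In UTX-AID, 2 were higher and 2 lower in −IAA, against 4.28% and 2.62% of all genes, and 3 higher and 2 lower in +IAA, against 4.05% and 2.4%. With a change of over 1 log2 unit required as well, 1 gene (Tbx3) remained in −IAA BAP1-AID, 2 in +IAA BAP1-AID (Tbx3 and Prdm14), 1 in −IAA UTX-AID (Tbx3) and 2 in +IAA UTX-AID (Tbx3 and Prdm14). The shares of all genes past both limits were 4.1%, 4.51%, 1.91% and 2% in that order. For the count of 0 lower in −IAA BAP1-AID, DESeq2 called 1, and 7 of the 10 genes had an unadjusted p under 0.05 in either direction. The lower counts in BAP1-AID depended on the pair of −IAA libraries at 3 h. Without replicate 2 of that pair, more of the 10 genes passed as lower at 6 h in both arms and at 3 h in −IAA. The +IAA comparisons do not use that library but share the fit's estimate of the spread. The share of all genes passing in that fit is not given here, so that the added calls are not read as particular to these genes.

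Tbx3, a T-box factor of the naive network, rose the most. Its 2 libraries of −IAA BAP1-AID were at 7.87 and 7.67 CPM at 0 h, at 17.8 and 22.5 CPM at 3 h and at 27.4 and 24.4 CPM at 6 h. In −IAA UTX-AID they were at 11.1 and 7.95 CPM at 0 h, at 29.8 and 25.4 CPM at 3 h and at 23.2 and 21.9 CPM at 6 h. All libraries with RA were above all libraries at 0 h. The log2 fold change at 6 h was 1.76 ± 0.13 (SE) in −IAA BAP1-AID (adjusted p = 2.02e-06) and 1.94 ± 0.14 in +IAA BAP1-AID (adjusted p = 1.04e-06). It was 1.26 ± 0.15 in −IAA UTX-AID (adjusted p = 3.63e-05) and 1.48 ± 0.15 in +IAA UTX-AID (adjusted p = 7.7e-06). At 3 h the gene was also called higher in all 4 combinations of clone and arm, at 1.36 to 1.81. The calls held with any 1 library left out. Tbx3 (chr5:119806298-119822797, mm39, plus strand, 7 exons) overlaps the antisense genes Tbx3os1 and Tbx3os2, and the strand setting of the counting is not given in the sources used here, so that reads of the partners cannot be told apart.

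Nanog, the homeobox factor of the core, was higher at 3 h in all 4 combinations. In −IAA BAP1-AID it was at 133 and 108 CPM at 0 h, at 217 and 182 CPM at 3 h and at 153 and 148 CPM at 6 h. In −IAA UTX-AID it was at 312 and 241 CPM, then at 454 and 419 CPM, then at 405 and 371 CPM. The 3 h libraries were the highest in both series, and no 6 h library overlapped those at 0 h. In BAP1-AID the log2 fold change at 3 h was 0.75 ± 0.10 (adjusted p = 0.000527) without and 0.84 ± 0.10 (adjusted p = 0.000197) with IAA. In UTX-AID it was 0.67 ± 0.10 (adjusted p = 0.000558) without and 0.74 ± 0.10 (adjusted p = 0.000278) with IAA. At 6 h it was 0.35 ± 0.10 (adjusted p = 0.0347), 0.73 ± 0.10 (adjusted p = 0.000342), 0.50 ± 0.10 (adjusted p = 0.00475) and 0.72 ± 0.10 (adjusted p = 0.000196) in the same order. The 6 h call in −IAA BAP1-AID was lost in 9 of the 12 fits with 1 library left out, all but those without −IAA replicate 1 at 0 h or either −IAA library at 3 h, with values of 0.22 to 0.50, and the 6 h call in −IAA UTX-AID was lost without replicate 2 at 0 h (0.31, adjusted p = 0.0516). The composite element described before lies upstream of the start of the canonical transcript and within the annotated gene (chr6:122679780-122691601, plus strand), which also overlaps the lncRNA gene Gm68578 on the other strand.

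Prdm14 (chr1:13183405-13198351, minus strand), a PR-domain factor that restrains FGF signalling and DNA methylation in ESCs, was higher at 3 h in all 4 combinations. Its −IAA BAP1-AID libraries were at 10.3 and 7.75 CPM at 0 h, at 22.7 and 23.5 CPM at 3 h and at 13.1 and 17.3 CPM at 6 h. The −IAA UTX-AID libraries were at 10.7 and 5.02 CPM, then at 22.1 and 16.4 CPM, then at 13.5 and 14.2 CPM. The libraries at 6 h lay between those at 0 h and those at 3 h in both. The log2 fold change at 3 h was 1.38 ± 0.15 (adjusted p = 6.7e-05) in −IAA BAP1-AID and 1.30 ± 0.26 (adjusted p = 0.00567) in −IAA UTX-AID, and 1.60 and 1.14 in the +IAA arms. At 6 h it was 0.78 ± 0.15 (adjusted p = 0.00285) and 1.23 ± 0.15 (adjusted p = 0.000102) in −IAA and +IAA BAP1-AID, and 1.01 ± 0.26 (adjusted p = 0.0251) in +IAA UTX-AID. In −IAA UTX-AID the value of 0.82 ± 0.26 did not pass in edgeR (adjusted p = 0.0743) but was called by DESeq2 and without the filter on low counts. Without replicate 1 of that group at 0 h it was 1.49 and was called (adjusted p = 0.000306), and it was also called without replicate 1 (0.83) or 2 (0.82) of its group at 3 h. In −IAA UTX-AID the 3 h value was 1.97 without replicate 1 at 0 h and 0.84 without replicate 2, both called. The UTX-AID calls at 3 h were lost without −IAA replicate 1 at 3 h (1.06, adjusted p = 0.051) and, in +IAA, without any 1 of the 4 libraries compared (1.07 to 1.20). The +IAA UTX-AID call at 6 h was lost without either library at 0 h or replicate 1 at 6 h (0.78 to 1.06), and the −IAA BAP1-AID call at 6 h without replicate 2 at 6 h (0.54, adjusted p = 0.0562).

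**Figure D2:**
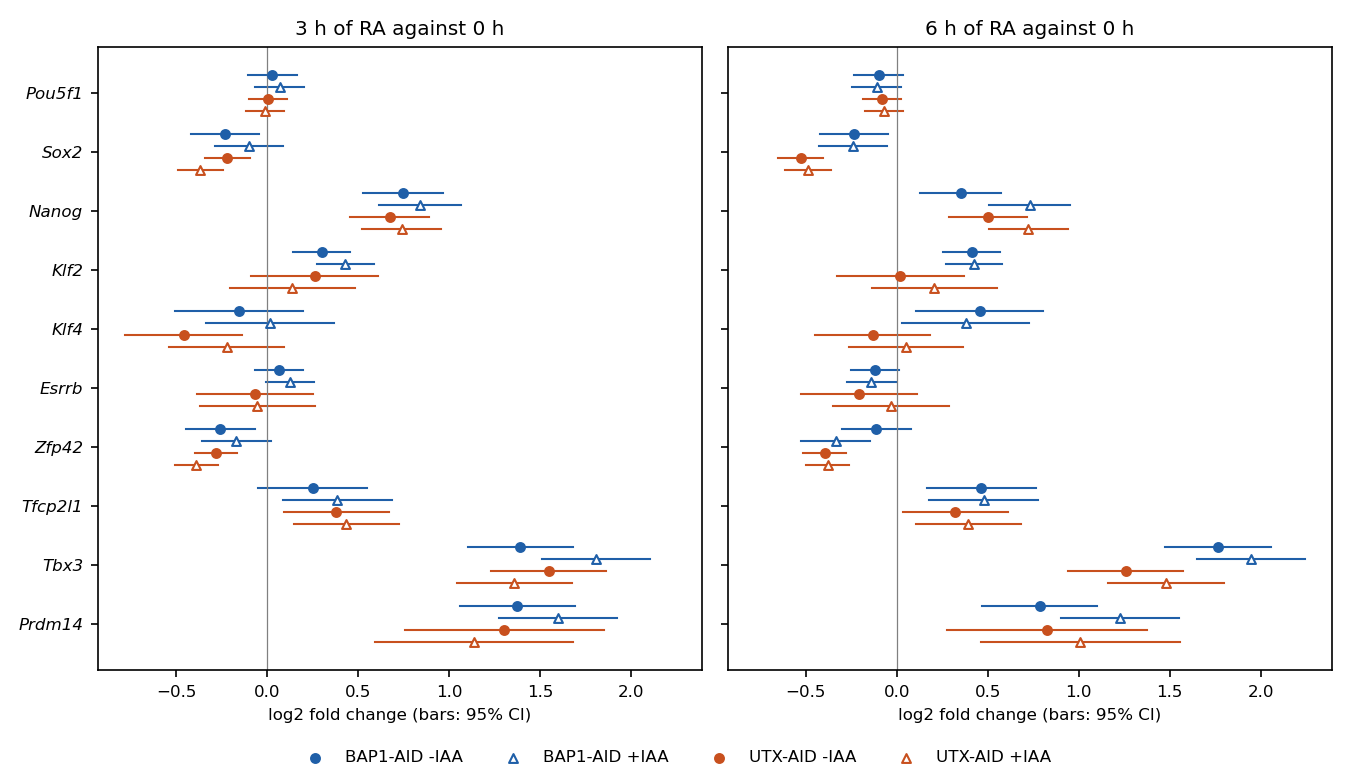
Log2 fold change of each gene at 3 h (left) and 6 h (right) of RA against 0 h of the same clone and arm. Points are the values of edgeR's fit, bars their 95% confidence intervals, blue for BAP1-AID and orange for UTX-AID, filled circles for −IAA and open triangles for +IAA. The points of Tbx3, Prdm14, Nanog, Tfcp2l1 and Klf2 lie to the right of 0 in all 4 combinations at both times. Those of Sox2 and Zfp42 lie to the left, and those of Pou5f1 within 0.11 of 0.

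Klf2 is a Krüppel-like factor of the naive network and Tfcp2l1 a CP2 family factor known as a STAT3 target. Both were called higher in BAP1-AID alone when the replicate number was left out of the fit. Klf2 was at 64.9 and 57.0 CPM at 0 h in −IAA BAP1-AID, at 75.7 and 72.6 CPM at 3 h and at 79.3 and 79.6 CPM at 6 h. The 6 h values were 0.41 ± 0.07 (adjusted p = 0.00174) in −IAA and 0.42 ± 0.07 (adjusted p = 0.00131) in +IAA, and both held with any 1 library left out. The 3 h values were 0.30 ± 0.07 (adjusted p = 0.0227) and 0.43 ± 0.07 (adjusted p = 0.00233). The first of these calls was lost in 9 of 12 fits with 1 library left out, all but those without −IAA replicate 1 at 0 h or either −IAA library at 3 h (0.22 to 0.38 over the 12), and the second without +IAA replicate 1 at 0 h (0.36, adjusted p = 0.0758). In UTX-AID the Klf2 libraries at 0 h (25.9 to 32.0 CPM) and at 6 h (23.5 to 37.9 CPM) overlapped, and the 6 h values of 0.02 and 0.21 did not pass. Klf2 (chr8:73072726-73075502, plus strand) overlaps the coding gene Eps15l1 on the other strand.

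Tfcp2l1 was at 88.9 and 96.5 CPM at 0 h and at 125 and 126 CPM at 6 h in −IAA BAP1-AID. The log2 fold change at 6 h was 0.46 ± 0.14 (adjusted p = 0.0379) in −IAA and 0.48 ± 0.14 (adjusted p = 0.0342) in +IAA BAP1-AID. The values in UTX-AID were 0.32 ± 0.14 (adjusted p = 0.223) and 0.39 ± 0.14 (adjusted p = 0.116). The −IAA BAP1-AID call was kept in 2 of 12 fits with 1 library left out, those without either −IAA library at 3 h (0.40 to 0.53 over the 12), and the +IAA call in 4 of 12, those without any 1 −IAA library at 0 or 3 h (0.43 to 0.48 over the 12). In −IAA UTX-AID the 6 h value was called without replicate 1 at 0 h (0.56, adjusted p = 0.017), and in +IAA UTX-AID without any 1 of the −IAA libraries at 0 or 3 h (0.39). At 3 h no combination was called by edgeR (0.25 to 0.44). It was called in −IAA BAP1-AID without replicate 1 at 3 h (0.51, adjusted p = 0.000123) and in +IAA BAP1-AID without either −IAA library at 3 h (0.36 to 0.38). In UTX-AID the 3 h value was called in −IAA without replicate 1 at 0 h (0.62) or 2 at 3 h (0.58), and in +IAA without any 1 −IAA library at 0 or 3 h (0.43 to 0.44). Tfcp2l1 (chr1:118555636-118612915, plus strand) overlaps several annotated non-coding genes on either strand.

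Zfp42 (chr8:43743871-43760152, minus strand), the zinc finger marker REX1, fell in UTX-AID. Its libraries in −IAA UTX-AID were at 653 and 611 CPM at 0 h, at 533 and 496 CPM at 3 h and at 473 and 477 CPM at 6 h, and those in +IAA at 654 and 637 CPM, 482 and 489 CPM, and 485 and 487 CPM. The libraries with RA were all below those at 0 h. The log2 fold change at 6 h was −0.40 ± 0.06 (adjusted p = 0.000191) in −IAA and −0.38 ± 0.06 (adjusted p = 0.000284) in +IAA, and at 3 h −0.28 ± 0.06 (adjusted p = 0.00553) and −0.39 ± 0.06 (adjusted p = 0.000369). The −IAA call at 3 h was lost without replicate 1 at 0 h or replicate 2 at 3 h (both −0.22). In BAP1-AID, where the gene was at 171 to 185 CPM at 0 h, it fell by 0.34 on the log2 scale in +IAA at 6 h (SE 0.09, adjusted p = 0.0203). This call was lost without any 1 of the 4 libraries compared (−0.37 to −0.35, adjusted p of at most 0.0931). In −IAA BAP1-AID the 6 h value was −0.11 ± 0.09 (adjusted p = 0.455). Without replicate 2 of −IAA at 3 h, Zfp42 was called lower at 3 h in both BAP1-AID arms (−0.42 in −IAA and −0.20 in +IAA).

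Sox2, the HMG-box partner of OCT4, fell in UTX-AID. In −IAA UTX-AID it was at 304 and 316 CPM at 0 h, at 255 and 271 CPM at 3 h and at 208 and 217 CPM at 6 h. The groups did not overlap. The log2 fold change at 6 h was −0.53 ± 0.06 (adjusted p = 1.98e-05) in −IAA and −0.49 ± 0.06 (adjusted p = 4.35e-05) in +IAA UTX-AID, and held with any 1 library left out. At 3 h it was −0.22 ± 0.06 (adjusted p = 0.0409) and −0.37 ± 0.06 (adjusted p = 0.00108), the first of which was called in 4 of 12 fits with 1 library left out (−0.25 to −0.19 over the 12). In BAP1-AID the libraries went from 483 and 504 CPM at 0 h to 403 and 419 CPM at 6 h in −IAA, and from 509 and 515 CPM to 436 and 418 CPM in +IAA. The values of −0.24 ± 0.09 in both arms did not pass (adjusted p = 0.0895 and 0.0829). The 3 h replicates of −IAA BAP1-AID stood at 370 and 462 CPM, and without replicate 1 of them both 6 h values were called (−0.235, adjusted p = 0.000806, and −0.244, adjusted p = 0.000611), as they were without replicate 2 (−0.26, adjusted p = 0.000259 in both arms). Without replicate 2 of them, Sox2 was also called lower at 3 h in −IAA (−0.41, adjusted p = 6.78e-05). Sox2 (chr3:34704554-34706610, plus strand, 1 exon) lies within the lncRNA gene Sox2ot on the same strand, which the counting could split.

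Pou5f1, Esrrb and Klf4 were not called at 3 or 6 h in any combination. Pou5f1 (chr17:35816789-35822274, plus strand), the POU factor OCT4, was at 1451 and 1374 CPM at 0 h and at 1306 and 1279 CPM at 6 h in −IAA BAP1-AID, and at 883 and 954 CPM and 833 and 884 CPM in −IAA UTX-AID. Its log2 fold changes at 6 h were −0.11 to −0.07, with 95% confidence intervals that reached from −0.24 to 0.04, so that a loss of more than 0.24 log2 units lay outside all 4 intervals. In BAP1-AID the decrease was called without replicate 1 (−0.10, adjusted p = 0.0283 in −IAA, and −0.11, adjusted p = 0.0156 in +IAA) or replicate 2 (−0.13 in both) of −IAA at 3 h. Related genes of the Pou5f1 family have rows of their own in the table, and reads of near-identical copies could have been split.

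Esrrb (chr12:86407887-86568409, plus strand), an orphan nuclear receptor, had 6 h values of −0.21 to −0.03, and Klf4 (chr4:55527139-55532528, minus strand), a Krüppel-like factor downstream of STAT3, of −0.13 to 0.46. Esrrb was at 153 and 148 CPM at 0 h and at 133 and 138 CPM at 6 h in −IAA BAP1-AID. It was called lower without replicate 2 of −IAA at 3 h in both BAP1-AID arms (−0.15, adjusted p = 0.038 in −IAA, and −0.16, adjusted p = 0.0272 in +IAA). Klf4 was at 13.5 and 16.2 CPM at 0 h, at 10.5 and 15.8 CPM at 3 h and at 21.0 and 18.9 CPM at 6 h in that group. Its 6 h values in BAP1-AID (0.46, adjusted p = 0.0793, and 0.38, adjusted p = 0.154) were called higher without either of those 3 h libraries, at 0.43 to 0.46 in −IAA and 0.36 to 0.38 in +IAA. In −IAA UTX-AID, Klf4 at 3 h had a value of −0.46 (adjusted p = 0.113), and −0.63 without replicate 2 at 0 h (adjusted p = 0.0497). In −IAA BAP1-AID at 3 h it was at −0.16, and at −0.50 without replicate 2 at 3 h (adjusted p = 0.0233).

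Between 3 and 6 h few calls were made. In −IAA BAP1-AID 0 of the 10 genes were called by edgeR (1.98% of all genes tested), with an unadjusted p under 0.05 for 5 genes and 4 calls by DESeq2. Without replicate 2 at 3 h, which leaves 1 library at that time, the values ran from −0.58 (Prdm14) to 0.92 (Klf4), with Sox2 at 0.15. Calls of that fit are not counted here, because the share of all genes called in it is not given. Without either 0 h library of that group, Nanog (both −0.40) and Prdm14 (both −0.59) were called lower. In +IAA BAP1-AID Esrrb alone was called (4.96% of all genes), lower by −0.27 ± 0.06 (adjusted p = 0.0271), and was called in 4 of 12 fits with 1 library left out, those without any 1 −IAA library at 0 or 3 h (−0.28 to −0.23 over the 12). Pou5f1 was called lower there without either −IAA library at 3 h (−0.18 and −0.17), Sox2 without replicate 1 of them (−0.14) and Klf4 higher without replicate 2 (0.37). In −IAA UTX-AID Sox2 alone was called (0.486% of all genes), at −0.31 ± 0.06 (adjusted p = 0.0328), but not without either of its libraries at 3 or 6 h (−0.33 to −0.28). In +IAA UTX-AID 0 genes were called by edgeR (0.289% of all genes), with 0 at an unadjusted p under 0.05 and 0 by DESeq2.

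The genes of the fixed lists around the factors give the setting of these changes. All 6 RA response genes rose in each combination at 6 h, among them Cyp26a1, which encodes the RA-degrading enzyme (log2 fold changes of 7.42 to 9.18), Stra8 (4.18 to 8.83) and the retinaldehyde reductase gene Dhrs3 (3.59 to 4.38). Their summed level went from 3.66 to 9.05 CPM at 0 h over both clones to 762 to 825 CPM at 6 h in BAP1-AID and 247 to 263 CPM in UTX-AID. Of 9 genes of the formative state, 6 were lower at 6 h in each combination, and 2, 1, 1 and 0 were higher in −IAA and +IAA BAP1-AID and −IAA and +IAA UTX-AID. The transcription factor genes Foxd3 (−3.34 to −2.44), Otx2 (−3.55 to −2.22) and Lef1 (−2.41 to −1.97) and the growth factor gene Fgf5 (−3.03 to −2.81) fell in all 4. The median log2 fold change of the formative list was −0.88 to −0.67, and that of all genes tested was within 0.02 of 0.

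Of 9 genes of the LIF receptor and STAT3 pathway, 3 were higher at 6 h in each combination, and 2, 1, 2 and 1 were lower in the same order. The kinase gene Pim1, a STAT3 target, rose by 1.54 to 1.95, Bcl3 by 1.07 to 2.08 and Pim3 by 0.26 to 0.42, and the receptor gene Lifr fell in all 4 (−0.63 to −0.36). Of 18 other pluripotency genes, 5, 5, 2 and 5 were higher and 3, 3, 4 and 6 lower, with medians between −0.14 and −0.02. Dppa2 was called higher in all 4 combinations (0.65 to 1.00). Tet2, which encodes a methylcytosine dioxygenase, was higher in all 4, with BAP1-AID at 1.30 and 1.42 and UTX-AID at 0.44 and 0.28. The nuclear receptor gene Nr0b1 was higher in 3 of 4 (0.91 and 1.09 in BAP1-AID, 0.38 in +IAA UTX-AID, and 0.30 with an adjusted p of 0.0547 in −IAA UTX-AID). Utf1 was lower in 3 of 4 (−0.59 and −0.68 in BAP1-AID, −0.31 in +IAA UTX-AID, and −0.21 with an adjusted p of 0.127 in −IAA UTX-AID). Over the same time, the 6 trophectoderm markers, of which 0 to 3 were at 0 in a library, went from a summed 14.02 to 18.4 CPM at 0 h to 19.7 to 22.6 CPM at 6 h in BAP1-AID, and from 4.86 to 8.36 CPM to 11.1 to 13.0 CPM in UTX-AID. The 7 primitive endoderm markers, of which 0 to 2 were at 0 in a library, went from 4.16 to 6.24 CPM to 8.70 to 9.21 CPM in BAP1-AID and from 2.43 to 5.38 CPM to 3.50 to 5.69 CPM in UTX-AID. Of the 5 trophectoderm markers tested, 1 was called higher at 6 h in each combination and 1 lower in each BAP1-AID arm. Of the 7 primitive endoderm markers, 1 was called higher in each BAP1-AID arm and 0 were called in UTX-AID. The part of these markers in the results was not tested.

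**Figure D3:**
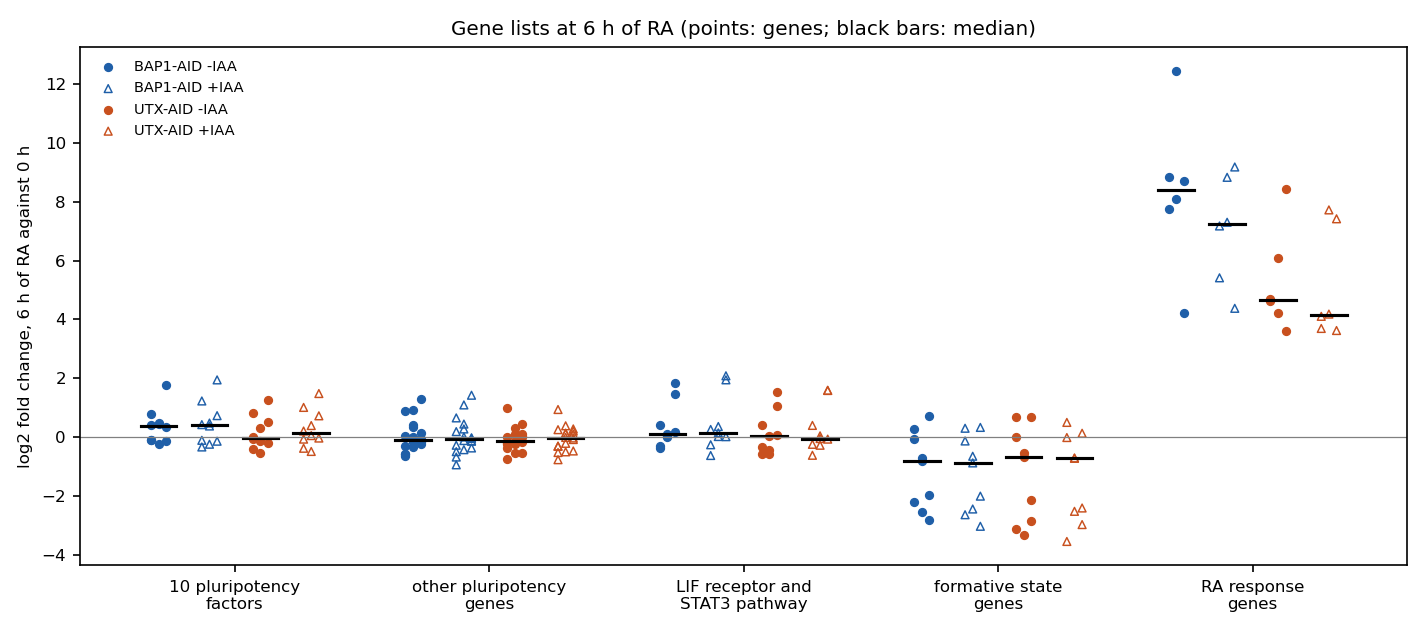
Log2 fold change at 6 h of RA against 0 h for the genes of each list, 1 point a gene, in the 4 combinations of clone and arm, with the median as a black bar. RA response genes lie at 3.59 (Dhrs3) or above (the highest, Hoxb1 in −IAA BAP1-AID, had 0 counts in both 0 h libraries, so that its fitted value is no measure of size), formative state genes reach down to −3.55 (Otx2), and the 10 pluripotency factors lie between −0.53 and 1.94.

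The second question was how the clones differed at 0 h. Zfp42 and Nanog were higher and Klf2, Sox2 and Pou5f1 lower in UTX-AID than in BAP1-AID ESCs, in both arms. In −IAA, 5 of the 10 genes were called, where 52.6% of all genes tested were, and in +IAA 7, where 51.8% were. The count in −IAA lay near this background and that in +IAA not far above it, so that neither count sets these genes apart. Past 1 log2 unit were 3 of the 10 in −IAA (Zfp42, Nanog and Klf2), against 20.9% of all genes, and 2 in +IAA (Zfp42 and Nanog), against 19.9%. These counts too lay near their shares.

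Zfp42 was at 171 and 185 CPM in −IAA BAP1-AID and at 653 and 611 CPM in −IAA UTX-AID, and the log2 difference was 1.83 ± 0.08 (adjusted p = 4.62e-15), with 1.82 ± 0.08 in +IAA (adjusted p = 1.92e-14). This was 3.55-fold and 3.52-fold. The fall of Zfp42 in UTX-AID therefore ended, at 473 to 487 CPM, well above the highest BAP1-AID library (185 CPM). Nanog was 2.30-fold higher in −IAA UTX-AID (log2 difference 1.20 ± 0.11, adjusted p = 2.41e-09) and 3.07-fold higher in +IAA (1.62 ± 0.11, adjusted p = 4.17e-11). The lowest UTX-AID library at 0 h (237 CPM) was above the highest BAP1-AID library at any time (217 CPM). Klf2 was lower, by −1.17 ± 0.13 (adjusted p = 1.02e-07) in −IAA and −0.76 ± 0.13 (adjusted p = 4.2e-05) in +IAA.

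Among the core factors, Sox2 was lower in UTX-AID by −0.67 ± 0.08 (adjusted p = 1.3e-07) in −IAA and −0.74 ± 0.08 (adjusted p = 3.81e-08) in +IAA, and Pou5f1 by −0.62 ± 0.06 (adjusted p = 2.16e-08) and −0.54 ± 0.06 (adjusted p = 2.43e-07). Pou5f1 was at 1255 to 1451 CPM in the 4 BAP1-AID libraries at 0 h and at 861 to 954 CPM in the 4 UTX-AID libraries. Esrrb and Tbx3 were called higher in +IAA (0.39, adjusted p = 0.0112, and 0.42, adjusted p = 0.0246), both lost without replicate 1 of either +IAA group (0.29 to 0.38 for Esrrb and 0.29 to 0.36 for Tbx3), and were at 0.21 and 0.29 in −IAA. The Tbx3 call was also lost with the 8 libraries at 0 h alone in the fit (0.42, adjusted p = 0.0592). Without replicate 2 of −IAA UTX-AID they were called there too (0.43 and 0.52), and Prdm14 was called lower without replicate 1 (−0.87, adjusted p = 0.00216). Klf4, Tfcp2l1 and Prdm14 were not called in either arm.

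The difference between the clones moved with GC content: its Spearman correlation with the GC content of transcripts was −0.352 in −IAA and −0.214 in +IAA over 16208 genes, a description of genes that share their libraries. With offsets for the GC content and length of transcripts in the fit, the 5 genes called in both arms kept their direction and call, at 1.66 and 1.62 for Zfp42, 0.86 and 1.35 for Nanog, −0.84 and −0.59 for Klf2, −0.51 and −0.73 for Sox2 and −0.34 and −0.47 for Pou5f1. Esrrb (0.67 and 0.71) and Tbx3 (0.78 and 0.80) were then called higher in both arms and Klf4 in −IAA (0.40, adjusted p = 0.0441). All 9 formative state genes were lower in UTX-AID in both arms (medians of −1.82 and −1.94, against 0.01 and 0.04 over all genes), with Otx2 at −2.10 and −2.02 and Fgf5 at −1.82 and −2.32. Of the 18 other pluripotency genes, 9 were higher and 6 lower in −IAA and 8 and 6 in +IAA, and Tet2 (2.41 and 1.99) was among the higher. The 6 two-cell-like markers summed to 11.3 to 19.9 CPM at 0 h in UTX-AID and 0.448 to 0.927 CPM in BAP1-AID, with Zscan4c the most abundant and 0 to 4 of them at 0 in a library. The 5 neural progenitor markers summed to 33.7 to 40.6 CPM at 0 h in UTX-AID and 54.4 to 69.7 CPM in BAP1-AID, with 0 to 2 at 0 in a library. Their part in the differences was not tested.

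**Figure D4:**
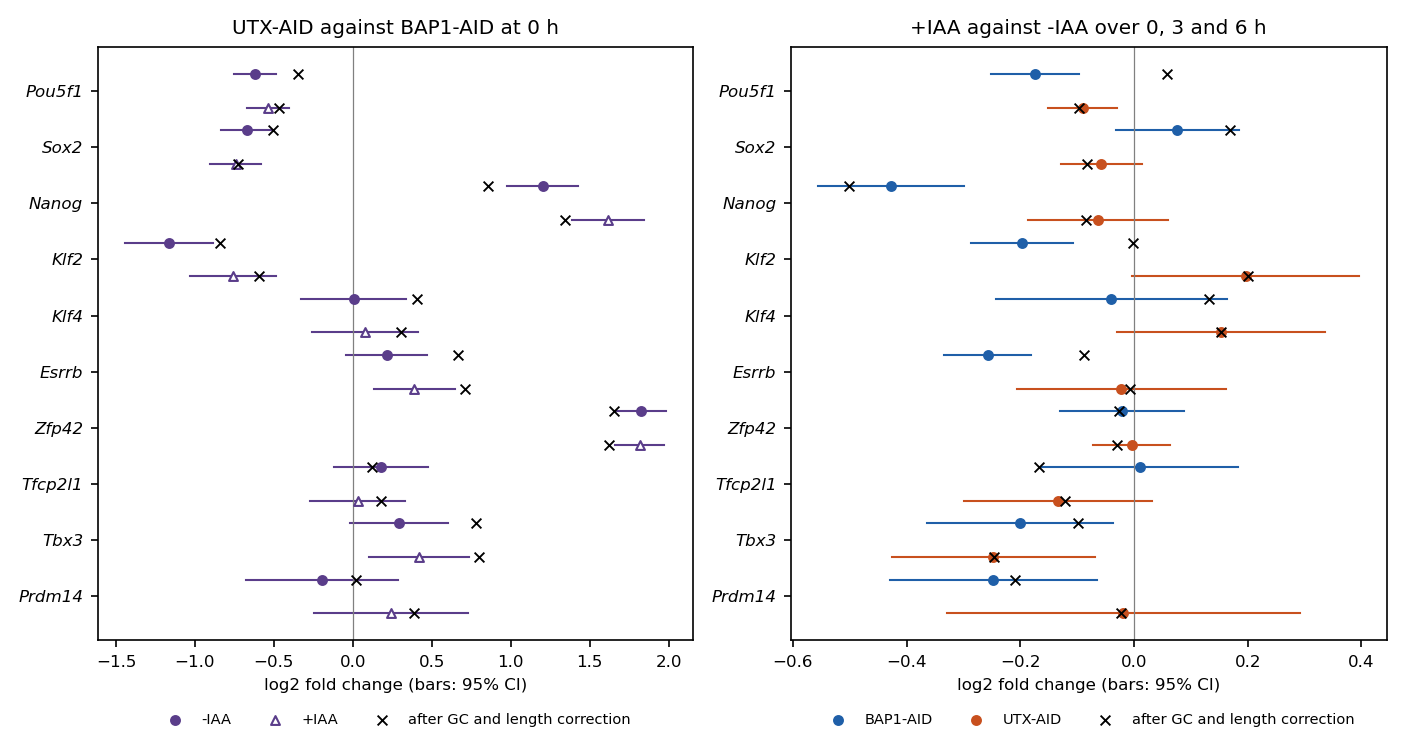
Log2 fold change of UTX-AID against BAP1-AID at 0 h (left, filled circles −IAA, open triangles +IAA) and of +IAA against −IAA averaged over 0, 3 and 6 h (right, blue BAP1-AID, orange UTX-AID). Bars are 95% confidence intervals and crosses are values with offsets for the GC content and length of transcripts. Zfp42 and Nanog stand to the right on the left panel with and without these offsets, and Nanog in BAP1-AID is the farthest to the left on the right panel, at −0.43 and −0.50.

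The difference between the clones in the response at 6 h was tested itself. In −IAA 0 of the 10 genes were called by edgeR (0.505% of all genes tested) and 0 by DESeq2, with an unadjusted p under 0.05 for 4 genes. In +IAA 0 were called by either tool (1.72% of all genes), with an unadjusted p under 0.05 for 2. The log2 differences (UTX-AID minus BAP1-AID) lay between −0.57 and 0.17 in −IAA, and their 95% confidence intervals reached from −1.04 to 0.73. For Sox2 the difference was −0.28 (interval −0.51 to −0.05) in −IAA and −0.26 (−0.48 to −0.03) in +IAA. That of Zfp42 was −0.27 (−0.49 to −0.05) in −IAA and −0.05 in +IAA. Neither gene was called in either arm, so that a difference between the clones was not shown for them. For Klf2 and Tfcp2l1 too a difference between the clones was not shown, at −0.38 (−0.77 to 0.01) and −0.13 (−0.55 to 0.29) in −IAA.

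The third question was whether IAA, and with it the loss of the tagged protein, changed the factors. All +IAA libraries came from tagged lines, so that an effect of IAA itself and the loss of the protein cannot be told apart. Per the paper, IAA was given before RA, so that the time since IAA grew with the hours of RA. The average over the RA times pools these times. An mRNA level cannot check a degron, which acts on the protein. Averaged over the RA times, 5 of the 10 genes were called in BAP1-AID, where 36.1% of all genes tested were, in either direction. The count lay near this background. All 5 were lower and 0 higher in +IAA, and the shares of all genes in each direction are not given here. For the count of 0 higher, DESeq2 also called 0, and 6 of the 10 genes had an unadjusted p under 0.05 in either direction. Nanog was lower by −0.43 ± 0.06 (adjusted p = 0.000137), Esrrb by −0.26 ± 0.04 (adjusted p = 0.000134), Prdm14 by −0.25 ± 0.08 (adjusted p = 0.036), Klf2 by −0.20 ± 0.04 (adjusted p = 0.0026) and Pou5f1 by −0.17 ± 0.04 (adjusted p = 0.00237). At 0 h, Nanog was at 85.2 and 77.1 CPM in +IAA and 133 and 108 CPM in −IAA, at 3 h at 143 and 141 CPM against 217 and 182 CPM, and at 6 h at 131 and 135 CPM against 153 and 148 CPM. The arms of Nanog did not overlap at any of the times.

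The IAA difference in BAP1-AID also moved with GC content, with a Spearman correlation of −0.472 across 15168 genes. With the offsets in the fit, Nanog was still lower (−0.50, adjusted p = 7.14e-05) and Tfcp2l1 became lower (−0.17, adjusted p = 0.0188). Pou5f1 turned to 0.06 (adjusted p = 0.0388) and Sox2 was called higher (0.17, adjusted p = 0.0255), whereas Esrrb (−0.09, adjusted p = 0.0776), Prdm14 (−0.21, adjusted p = 0.0827) and Klf2 (0.00, adjusted p = 0.999) were not called. The Prdm14 call was also lost in 9 of 12 fits with 1 library left out (−0.31 to −0.16 over the 12), all but those without −IAA replicate 2 at 0 h, 1 at 3 h or 1 at 6 h. Without replicate 2 of −IAA at 3 h, Sox2 was called higher (0.15, adjusted p = 0.000249) and Tfcp2l1 higher (0.14, adjusted p = 0.00404). Tbx3, at −0.20 (adjusted p = 0.0556), was called lower without replicate 1 of −IAA at 3 h (−0.25) or replicate 2 of +IAA at 6 h (−0.23).

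In UTX-AID 0 of the 10 genes were called by edgeR for IAA (2.62% of all genes tested), with an unadjusted p under 0.05 for 2 and 1 call by DESeq2, and the log2 differences were −0.25 to 0.20. Tbx3 was called lower without replicate 2 of −IAA at 0 h (−0.33, adjusted p = 0.0338). The RA response at 6 h was not called different between the arms for any of the 10 genes by edgeR or DESeq2. The share of all genes called was 0.153% in BAP1-AID, with an unadjusted p under 0.05 for 1 of the 10 genes, Nanog at 0.38 (interval 0.06 to 0.69), and 0% in UTX-AID, with 0 of the 10 genes under it. The widest interval in UTX-AID, that of Prdm14, ran from −0.58 to 0.95.

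Across the 12 group means, the genes most like each factor by Pearson correlation of mean log2 CPM, with the clones and their libraries shared by all points, were Rcc2 for Pou5f1 (r = 0.997), Efnb2 for Sox2 (0.993), Ss18l2 for Nanog (0.986), Cdc20 for Klf2 (0.990), Nt5c3 for Zfp42 (0.994) and Notch4 for Tbx3 (0.987). Those for Itga5 and Prdm14 (0.979), Ccnd2 and Tfcp2l1 (0.964), Atox1 and Esrrb (0.963) and Magee1 and Klf4 (0.928) were lower. For Pou5f1, Sox2, Nanog, Klf2 and Zfp42, all libraries of one clone lay above all of the other. The following pairs were chosen after their values were seen. Within the 6 group means of a clone, Nanog followed Prdm14 (r = 0.978 in UTX-AID and 0.926 in BAP1-AID) and Tbx3 (0.989 and 0.792), and ran against Zfp42 (−0.937 and −0.766). Pou5f1 followed Esrrb in BAP1-AID (r = 0.993), with 0.599 in UTX-AID. Sox2 ran against Klf2 in BAP1-AID (r = −0.922), with −0.311 in UTX-AID. Over the 12 groups of both clones the values were 0.337 for Nanog and Prdm14, 0.474 for Nanog and Tbx3, 0.812 for Nanog and Zfp42, −0.519 for Pou5f1 and Esrrb and 0.818 for Sox2 and Klf2, so that 3 of the 5 pairs had the other sign there.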

How the data were processed

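RNA-seq libraries of BAP1-AID and UTX-AID ESCs were grouped by the clone, IAA arm and hours of RA in their labels. Per the labels' processing notes, the tools were HISAT2 2.2.1, SAMtools 1.19, StringTie 2.2.1 and deepTools 3.5.4 with the mm39 genome. The deposited values are estimated counts per gene from StringTie, which the authors wrote as whole numbers, not normalized. The gene annotation and strand setting are not given in the sources used here.

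Counts were analysed in R 4.3.3 with edgeR 4.0.16 (filterByExpr at min.count 10 and min.total.count 15, TMM, quasi-likelihood test, one coefficient per group, Benjamini-Hochberg adjustment over all genes tested). The clones were fitted apart for RA and IAA (15695 and 16268 genes) and together for clone differences (16816 genes). TMM factors were 0.965 to 1.03 and the biological coefficient of variation 11.6% and 11.9%. SE and 95% confidence intervals follow from the F statistic. Levels are CPM scaled by TMM factors of all 24 libraries, per kb of the canonical transcript (GENCODE vM39) where genes are compared. Alternatives were DESeq2 1.42.0, RLE factors, no filter, the replicate number as a block, offsets for GC content and transcript length (splines with 5 degrees of freedom), all 24 libraries in one fit or the 8 compared alone, and fits without each library. The fit was tested on simulated counts. Figures were drawn in Python 3.11.15.

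All 10 genes were described in every comparison. Of each list, up to 4 genes with the smallest adjusted p at 6 h in −IAA BAP1-AID were named (1 gene of the RA response list is not reported here), and for likeness the 1 gene with the highest correlation. The genes and lists were chosen with earlier results of these data known.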

Additional observations from a re-analysis of the deposited data

How the results depend on the processing

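The spread rests on 2 libraries a group, and of the RA comparisons those of Prdm14 in UTX-AID had the widest intervals. With RLE in place of TMM factors all 200 tests of a gene in a comparison kept their direction and side of the threshold. DESeq2 kept 192 and called 8 more, and testing without the filter kept 196 and called 4 more. The causes of the following differences were not tested. The share of all genes called under each alternative setting is not given here, so that no count below is read as particular to these genes. With all 24 libraries in one fit, 1 gene was lower at 3 h and 1 at 6 h in −IAA BAP1-AID, 1 was higher and 1 lower between 3 and 6 h in −IAA BAP1-AID, 2 were lower at 6 h in +IAA BAP1-AID, 0 were lower between 3 and 6 h in +IAA BAP1-AID or −IAA UTX-AID, 1 was lower at 3 h in −IAA UTX-AID and 3 were lower with IAA in BAP1-AID. With DESeq2, 1 gene was lower at 6 h in −IAA and 2 in +IAA BAP1-AID, 1 was higher and 3 lower between 3 and 6 h in −IAA BAP1-AID, 1 was lower with IAA in UTX-AID, and Prdm14 was higher at 6 h in −IAA UTX-AID. The fits of the 8 libraries compared, for the clones at 0 h and for their 6 h responses, kept 39 of 40 tests. The fit at 0 h lost Tbx3 in +IAA.

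With offsets for the GC content and length of transcripts, 1 gene was lower at 6 h in −IAA and 3 in +IAA BAP1-AID, 2 were lower between 3 and 6 h in −IAA and 0 in +IAA BAP1-AID, IAA in BAP1-AID gave 2 higher and 2 lower, and 5 were higher in UTX-AID at 0 h without IAA. For IAA in BAP1-AID, Pou5f1 turned to 0.058 and Tfcp2l1 to −0.17. Without the offsets, 36.1% of all genes tested were called for IAA in BAP1-AID, in either direction. Between the clones at 0 h in −IAA that share was 52.6%.

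Same-numbered libraries deviated together in part: over 15 pairs of groups in each clone the correlations of their deviations were −0.0603 to 0.339 in BAP1-AID, 1 of them over 0.1, and −0.0771 to 0.272 in UTX-AID (median 0.104), 8 of them over 0.1. In UTX-AID, Nanog, Esrrb and Klf2 were higher and Sox2 lower in replicate 1 in all 6 groups. Since not every pair was over 0.1, and the labels name no shared source, the numbers were not taken as a pairing. With the replicate number as a block, 191 of the 200 tests were kept and 9 more called: 1 gene was lower between 3 and 6 h in −IAA BAP1-AID, 4 were higher at 6 h in −IAA UTX-AID (Prdm14 and Tfcp2l1 in addition), and 1 was higher (Klf2) and 1 lower (Pou5f1) with IAA in UTX-AID. The other calls added were those of Tfcp2l1 at 3 h in −IAA and at 3 and 6 h in +IAA UTX-AID and of Tbx3, lower with IAA in BAP1-AID. With the block and these offsets together, the counts were those of the offsets for BAP1-AID and the clones, with 1 more gene higher between 3 and 6 h in −IAA BAP1-AID, and those of the block for UTX-AID. Pou5f1 was then at 0.058 and Tfcp2l1 at −0.17 for IAA in BAP1-AID.

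Leaving out 1 library at a time, genes higher at 3 h numbered 3 to 5 in −IAA and in +IAA BAP1-AID and 2 to 4 in −IAA and in +IAA UTX-AID. At 6 h they numbered 2 to 6, 4 to 6, 1 to 4 and 2 to 4 in −IAA and +IAA BAP1-AID and −IAA and +IAA UTX-AID, and between 3 and 6 h 0 to 5 and 0 to 1 in −IAA and +IAA BAP1-AID. Genes lower at 3 h numbered 0 to 3, 0 to 1 and 0 to 2 in −IAA and +IAA BAP1-AID and −IAA UTX-AID, at 6 h 0 to 3 and 0 to 4 in −IAA and +IAA BAP1-AID, and between 3 and 6 h 0 to 4, 0 to 3 and 0 to 1 in −IAA and +IAA BAP1-AID and −IAA UTX-AID. For IAA, 0 to 2 were higher and 4 to 6 lower in the BAP1-AID clone and 0 to 1 lower in UTX-AID. Between the clones at 0 h, 2 to 4 were higher in each arm and 3 to 4 lower in −IAA. Sox2 between 3 and 6 h in −IAA BAP1-AID (−0.00492) was at −0.15 without replicate 1 at 3 h and at 0.15 without replicate 2.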
